A study of Mus musculus with 9 samples.

Results

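The genes described here were those whose RNA level stood on the same side of unedited mouse embryonic stem (ES) cells in every library of both Kif2a knockout lines. A gene was kept when its mean over the 9 libraries was at least 10 normalised read counts and when all 6 knockout libraries lay above, or all 6 lay below, all 3 unedited (WT) libraries. Of the 15526 genes measured, 10238 reached that mean, and 928 met the rule (9.06% of those tested). Of these, 652 were higher in the knockout libraries (6.37%) and 276 were lower (2.7%). Because these values chose the genes, every difference between knockout and WT is given as a description and carries no test. Where the text below says that knockout and WT libraries of such a gene did not overlap, it restates the rule. The difference between the lines was not what the rule selected on, and it was tested, although the rule limits it too, since both lines had to lie on the same side of WT.

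The cells were mouse ES cells of a 129 background that had received no treatment, and poly-A RNA was sequenced from 3 libraries of WT cells, 3 of the knockout line KO1 (titled C5) and 3 of the knockout line KO2 (titled E5). The study asked how KIF2A acts on the microtubules of the bridge that joins daughter cells, and on cytokinesis. Both lines are labelled Kif2a knockout, each group is 1 cell line, and the labels do not say that the libraries of a group came from separate cultures, so a p-value reflects no more than the spread between these libraries. Both lines were compared with the same WT libraries, so their values against WT are set side by side and are not independent.

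Kif2a encodes a kinesin-13, a motor that does not walk along microtubules but takes tubulin off their ends. Kinesin-13 proteins act on the spindle, on centrosomes and in the growth of axons, and loss of KIF2A disturbs the wiring of the brain. Mouse ES cells divide fast, hold a pluripotent state with Pou5f1, Sox2 and Nanog, and draw heavily on glycolysis and on one-carbon metabolism.

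The knockout itself was the largest shared difference. Kif2a (ENSMUSG00000021693, chr13:106958996-107022126, minus strand, GRCm38) stood, in normalised read counts, which is the unit of all gene levels below, at 109, 121 and 113 in WT, 0.886, 1.16 and 0.957 in KO1 and 1.06, 0.710 and 1.75 in KO2. Every knockout library lay near 1, far below the WT range. The closest gene, Dimt1 (ENSMUSG00000021692, chr13:106947127-106960224, plus strand), which encodes a methyltransferase of the small ribosomal subunit RNA, stood at 42.9, 46.2 and 50.9 in WT, 20.7, 23.9 and 25.8 in KO1 and 22.8, 26.1 and 28.7 in KO2. Its knockout levels were 50.3% and 55.5% of WT in KO1 and KO2. Knockout and WT libraries did not overlap, and the lines overlapped each other. The annotated Dimt1 and Kif2a intervals overlap at their ends on opposite strands, and whether reads were counted by strand is not given in the sources used here, which leaves the Dimt1 value uncertain. The other tested genes within 1 Mb of Kif2a (Ipo11, Zswim6 and Ndufaf2) did not meet the rule.

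Apart from these genes the shared differences were small. On the log2(value + 1) scale, which understates changes of low genes, the median difference of the higher genes (mean of both lines with equal weight) was 0.18, with quartiles of 0.13 and 0.25, and that of the lower genes was −0.19. The same median over all 10238 tested genes was 0.02. Taking the smaller difference of the lines as the shared size of a gene, 67 higher and 31 lower genes reached 1.2-fold, and 1 higher and 2 lower genes reached 1.5-fold. The lower pair was Kif2a and Dimt1, and the higher gene was Padi2, which encodes an arginine deiminase that makes citrulline in proteins and is named here after its values were seen. Padi2 stood at 31.2, 25.4 and 27.1 in WT, 46.3, 39.5 and 43 in KO1 and 66.3, 59.6 and 60.1 in KO2.

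How many genes stood on which side depended on the scaling between libraries. With median-ratio factors 448 genes were higher and 468 lower, with quantile normalization 464 and 424, and with TMM factors 461 and 455. Under all 4 scalings 407 of the 652 higher and 270 of the 276 lower genes kept their side. Leaving out 1 library gave 717 to 1155 higher and 298 to 629 lower genes. Counts of single lists under another scaling or without a library are to be read beside these totals. The shares of 6.37% and 2.7% hold for the authors' scaling with all 9 libraries. For WT replicate 2 the authors' factor exceeded the median-ratio factor 1.03 times, and that library had the lowest total of scaled values. The margins were often thin, with a median gap between the nearest knockout and WT libraries of 2.57% of the WT mean in the higher genes and 2.09% in the lower ones. The gap was under 1% of WT in 152 higher and 88 lower genes, and at least 10% in 53 higher and 9 lower genes. Closest to the boundary inside was the nuclear matrix protein gene Safb, whose lowest WT value was 327.51 and highest knockout value 327.49. Closest outside was the purine synthesis gene Ppat, with 332.51 and 332.56. At the minimum mean, Misp (10.2) and Zfp764 (10.3) lay just inside and Smco4 (9.67) and Map3k6 (9.64) just outside.

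**Figure D1:**
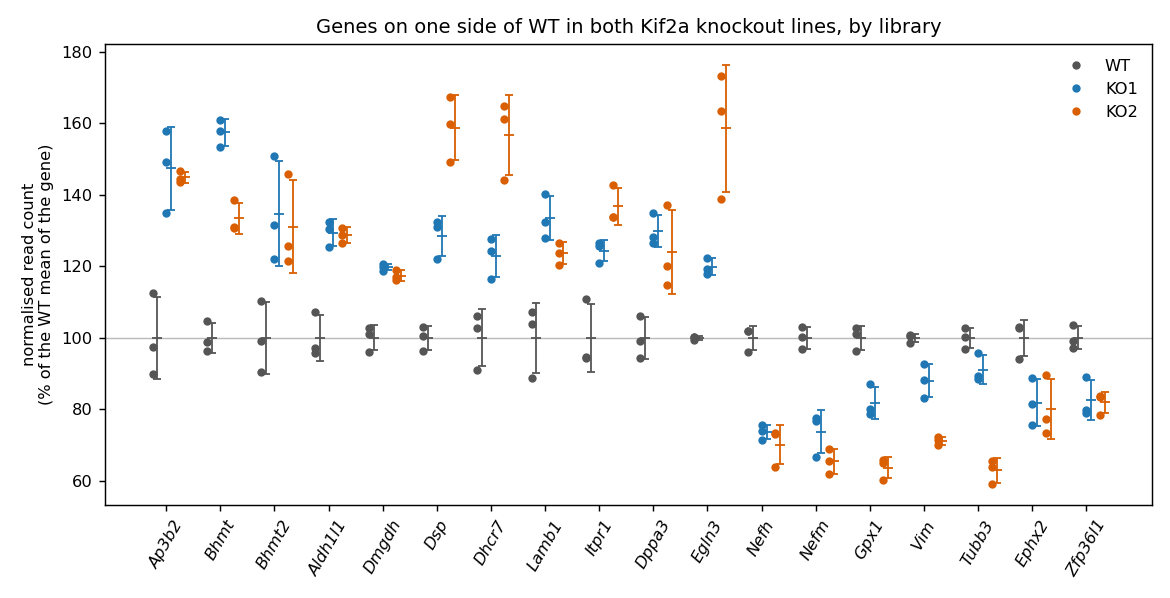
Normalised read counts of 18 genes in each library, as a percentage of the gene's WT mean (points; bars show mean ± SD of the 3 libraries of a group, linear axis). In each gene the 6 knockout points lie on one side of the 3 WT points, as the selection required, and Dsp, Dhcr7, Egln3, Gpx1, Vim and Tubb3 lie farther from WT in KO2 than in KO1.

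In betaine and homocysteine metabolism 3 neighbouring genes on chromosome 13 were all higher. Bhmt (ENSMUSG00000074768, chr13:93616675-93637961, minus strand, GRCm38), which passes a methyl group from betaine to homocysteine to make methionine, stood at 89.6, 82.5 and 84.5 in WT, 135, 131 and 138 in KO1 and 112, 112 and 118 in KO2. Knockout and WT did not overlap, and KO1 lay above KO2. Its differences from WT were 0.65 ± 0.06 in KO1 and 0.41 ± 0.06 in KO2, and it was the only gene of the 112 called between the lines that lay farther from WT in KO1 (KO2 minus KO1 −0.24 ± 0.06, limma adjusted p = 0.0076). Bhmt2 (ENSMUSG00000042118, chr13:93655720-93674302, minus strand), whose product methylates homocysteine from S-methylmethionine, stood at 59.4, 48.7 and 53.3 in WT, 70.8, 81.2 and 65.7 in KO1 and 67.7, 78.5 and 65.4 in KO2. All 6 knockout libraries exceeded the highest WT library, and the lines overlapped each other. Dmgdh (ENSMUSG00000042102, chr13:93674433-93752833, plus strand), which encodes the mitochondrial enzyme that takes dimethylglycine, the product of the betaine reaction, to the next step, stood at 188, 201 and 198 in WT, 235, 232 and 236 in KO1 and 233, 227 and 229 in KO2. Its knockout libraries formed a narrow band above WT, at 119.8% and 117% of the WT mean in KO1 and KO2. The tested genes on either side of the trio, Jmy and Lhfpl2, did not meet the rule. Bhmt and Bhmt2 are paralogs, and how reads matching both were counted is not stated.

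The start regions of this trio are shown because the 3 genes stood higher together (RefSeq windows of 250 bases before to 50 bases after the start, GRCm38.p6, each given 5′ to 3′ on the strand of its gene). Bhmt2 and Dmgdh start 130 bases apart on opposite strands, so their windows share 233 bases. In the Dmgdh window (chr13:93674186-93674485, plus strand) capitals mark the 130 bases between the starts, which are 70.8% G or C and hold 1 GC box (GGGCGG, searched on both strands, found in 69.0% of 8099 promoters of tested genes) and no CCAAT. In the Bhmt window (chr13:93637709-93638008, minus strand), whose RefSeq start lies 203 bases from the GENCODE start, capitals mark 2 matches to CCAAT, read on either strand, a motif that 39.8% of the 8099 promoters hold. A match is a description of letters and no evidence of binding.
Dmgdh: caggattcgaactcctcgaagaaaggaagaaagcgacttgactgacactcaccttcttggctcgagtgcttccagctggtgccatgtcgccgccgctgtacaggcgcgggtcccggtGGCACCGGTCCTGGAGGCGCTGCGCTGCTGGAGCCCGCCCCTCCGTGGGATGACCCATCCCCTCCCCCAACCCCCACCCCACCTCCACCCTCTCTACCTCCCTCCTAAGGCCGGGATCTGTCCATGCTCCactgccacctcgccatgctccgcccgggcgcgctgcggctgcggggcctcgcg
Bhmt: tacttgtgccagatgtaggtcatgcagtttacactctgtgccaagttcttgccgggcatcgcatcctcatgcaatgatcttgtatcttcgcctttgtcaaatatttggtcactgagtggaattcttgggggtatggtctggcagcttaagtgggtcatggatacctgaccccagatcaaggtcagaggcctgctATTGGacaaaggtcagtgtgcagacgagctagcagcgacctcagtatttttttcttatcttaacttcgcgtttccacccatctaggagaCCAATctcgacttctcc

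Of the 28 tested genes of betaine, methionine and folate metabolism, 6 were higher (21.4%, against 6.37% of all) and 2 lower (7.14%, against 2.7%). The list's median difference was 0.01 against 0.02 over all tested genes. Aldh1l1, a folate enzyme that oxidises 10-formyltetrahydrofolate, stood at 100.5, 90.8 and 89.5 in WT, 122, 124 and 117 in KO1 and 118, 122 and 121 in KO2. Libraries of both knockout lines shared a range and lay above all WT libraries (0.37 ± 0.06 in KO1 and 0.36 ± 0.06 in KO2). Phgdh, the first enzyme of serine synthesis, was also higher (165 to 191 in WT and 193 to 249 in the knockout libraries), as was, under the authors' scaling only, Ahcyl1, whose product binds IP3 receptors (136 to 152 in WT and 154 to 177 in the knockout libraries). Mat2a, which makes S-adenosylmethionine (482 to 514 in WT and 351 to 481 in the knockout libraries), was lower. With other scalings 5 genes of the list were higher and 3 or 4 lower, and 4 were lower without WT replicate 3 or KO2 replicate 3.

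The remaining genes with the largest shared size among those with a mean of at least 50 had varied roles. Ap3b2, a subunit of the AP-3 adaptor complex best known from neurons, stood at 53.6, 42.9 and 46.5 in WT, 71.2, 64.4 and 75.3 in KO1 and 70, 68.8 and 68.5 in KO2. Its differences from WT were 0.55 ± 0.08 in KO1 and 0.53 ± 0.08 in KO2, and no knockout library reached down to WT. Ppp1r3b, which brings protein phosphatase 1 to glycogen, stood at 42.7, 40.1 and 41.3 in WT, 55.3, 49.7 and 57 in KO1 and 70.1, 53.4 and 65.8 in KO2, with KO2 replicate 2 inside the KO1 range. Itpr1, a calcium release channel of the endoplasmic reticulum gated by IP3, stood at 131, 112 and 111 in WT, 148, 149 and 143 in KO1 and 168, 158 and 158 in KO2. WT replicate 1 was the highest WT library in Itpr1 and still lay below all knockout libraries.

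Lrrc31, a leucine-rich repeat gene, stood at 60.2, 54.5 and 57.7 in WT, 74.2, 76.6 and 64.2 in KO1 and 71, 81.6 and 80.1 in KO2. In Lrrc31 the lines overlapped, and both lay above WT. Ank3, which encodes the membrane scaffold ankyrin-G, stood at 57.9, 56.2 and 55.1 in WT, 66.4, 71.6 and 71.9 in KO1 and 78.6, 75.2 and 79.5 in KO2, with the lines apart and both above WT. Tnfrsf1b, a receptor of tumour necrosis factor, stood at 57, 47.5 and 61 in WT, 71, 71.1 and 70.8 in KO1 and 64.5, 68.6 and 69.3 in KO2. Its WT libraries were more spread than either line. Lonrf1, which encodes a RING finger protein, stood at 80.3, 91.9 and 82.4 in WT, 103, 101 and 105 in KO1 and 106, 97 and 107 in KO2, and its difference was 0.28 ± 0.07 in each line. Bst2, the virus restriction factor tetherin, stood at 58.2, 50.4 and 54.2 in WT, 64.3, 63.5 and 69.8 in KO1 and 73.6, 75.8 and 69.8 in KO2, with 1 KO1 library as high as the lowest KO2 library.

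The lower genes included the 3 neurofilament genes. The list of intermediate filaments, stathmins and neuronal markers held 6 lower genes of 11 tested (54.5%, against 2.7% of all) and no higher ones. The list's median difference was −0.19, and by line it was −0.14 in KO1 and −0.35 in KO2. Nefh, the heavy neurofilament subunit, stood at 63.6, 59.9 and 63.5 in WT, 44.6, 46.1 and 47.1 in KO1 and 45.6, 45.7 and 39.8 in KO2. Its knockout levels were 73.7% and 70.1% of WT, and the lines overlapped each other and not WT. Nefm, the medium subunit, stood at 45, 43.8 and 42.4 in WT, 29.2, 33.9 and 33.6 in KO1 and 27.1, 30.2 and 28.7 in KO2, and Nefl, the light subunit, at 61, 53 and 54.4 in WT, 48.8, 48 and 43.6 in KO1 and 40.5, 42 and 40.4 in KO2. All 3 neurofilament genes were thus below every WT library in both lines, with differences for Nefm of −0.43 ± 0.09 in KO1 and −0.60 ± 0.09 in KO2 and for Nefl of −0.26 ± 0.08 in KO1 and −0.44 ± 0.08 in KO2. Vim, which encodes vimentin, the filament of mesenchymal and progenitor cells, stood at 429, 438 and 437 in WT, 383, 362 and 402 in KO1 and 310.2, 314 and 305 in KO2, in steps from WT to KO1 to KO2 (KO2 minus KO1 −0.30 ± 0.04, limma adjusted p = 2.2e-06). Tubb3, the neuronal beta-tubulin, stood at 86, 91.1 and 88.9 in WT, 78.3, 79.2 and 84.9 in KO1 and 56.7, 58.2 and 52.4 in KO2. KO1 lay only slightly below WT (−0.13 ± 0.07 and −0.66 ± 0.07 in KO1 and KO2), and KO2 lay below KO1 (KO2 minus KO1 −0.53 ± 0.07, limma adjusted p = 4.2e-07). Stmn2, a stathmin that binds tubulin dimers, was lower too (215 to 229 in WT and 185 to 209 in the knockout libraries). With each of the other scalings 8 genes of this list were lower and none higher, and 1 was higher without WT replicate 1 or KO1 replicate 3. The list's summed level over the 18 genes with a row was 1531 to 1562 in WT, 1386 to 1422 in KO1 and 1282 to 1319 in KO2. That sum includes the 6 genes that the rule chose as lower. In bulk RNA, fewer cells of a type and less RNA per cell cannot be told apart.

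Outside that list the lower genes of largest shared size were of many kinds. Gpx1, a selenium-dependent peroxidase that removes hydrogen peroxide with glutathione, stood at 434, 463 and 456 in WT, 361, 355 and 393 in KO1 and 296, 293 and 272 in KO2. None of the 3 groups overlapped, and KO2 lay below KO1 (KO2 minus KO1 −0.36 ± 0.05, limma adjusted p = 1.0e-07). Ephx2, the soluble epoxide hydrolase, stood at 116, 106 and 115 in WT, 99.7, 84.9 and 91.4 in KO1 and 87, 82.5 and 101 in KO2, with the lines overlapping. Zfp36l1, an RNA-binding protein that promotes decay of mRNAs, stood at 83.2, 78.2 and 79.7 in WT, 63.4, 64.1 and 71.6 in KO1 and 67.1, 67.3 and 63 in KO2. Knockout levels of Zfp36l1 were 82.6% and 81.9% of WT.

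Tfap4, a helix-loop-helix transcription factor, stood at 62.1, 60.2 and 57.5 in WT, 45.9, 47.3 and 56.2 in KO1 and 45.6, 49.6 and 48.8 in KO2; KO1 replicate 3 came close to the lowest WT library. Prex2, an activator of Rac, stood at 87.2, 93.5 and 86.1 in WT, 67.7, 76.6 and 80.7 in KO1 and 61.6, 66.2 and 70.4 in KO2. KO2 lay lower than KO1 on average in Prex2, with overlap between the lines. Zeb1, a repressor of epithelial genes, stood at 73.9, 73.2 and 83.2 in WT, 71, 67.6 and 59.8 in KO1 and 57.9, 63.1 and 58.5 in KO2, and Selenot, a selenoprotein of the endoplasmic reticulum, at 110.3, 128 and 114 in WT, 95.3, 104 and 103 in KO1 and 98.2, 95.2 and 101 in KO2. Both genes had knockout libraries entirely below WT, with a thin margin for Zeb1 in KO1 replicate 1. Arrdc3, Cpt1c, Gtf3c6, Bscl2, Amotl2, Gask1b and Zfp280d complete the 15, with differences for the mean of both lines between −0.32 for Gask1b and −0.22 for Cpt1c. Among them Cpt1c is a neuronal carnitine palmitoyltransferase, Gtf3c6 a subunit of the RNA polymerase III factor TFIIIC, Bscl2 the lipid droplet protein seipin and Amotl2 an inhibitor of YAP.

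Glucose uptake, glycolysis and targets of the hypoxia-inducible factor (HIF) formed the list with most higher genes. Of 32 tested genes 14 were higher (43.8%, against 6.37% of all tested genes) and none lower. Under median-ratio, quantile and TMM scaling 9, 10 and 9 were higher. The list's median difference was 0.15, and by line it was 0.05 in KO1 and 0.26 in KO2. Egln3, a prolyl hydroxylase that marks HIF for degradation and is itself induced by it, stood at 35.6, 35.6 and 35.3 in WT, 41.8, 43.5 and 42.4 in KO1 and 61.6, 49.3 and 58.1 in KO2. WT and KO1 values were tightly grouped and KO2 lay above both (KO2 minus KO1 0.39 ± 0.09, limma adjusted p = 0.0018). Aldoc, an aldolase, stood at 54, 51.8 and 57 in WT, 70, 63.6 and 59 in KO1 and 78.4, 77.6 and 76.8 in KO2, Pdk1, a kinase that shuts pyruvate dehydrogenase, at 109.6, 105 and 110.2 in WT, 129, 127 and 122 in KO1 and 144, 129 and 159 in KO2, and P4ha1, a collagen prolyl hydroxylase, at 149.5, 151 and 140.5 in WT, 165, 175 and 166 in KO1 and 191, 185 and 212 in KO2. In each of these genes KO1 lay above WT and the KO2 mean above that of KO1. Bnip3, a mitophagy receptor induced by hypoxia, stood at 72.3, 74.7 and 75.9 in WT, 82.8, 88.9 and 82.8 in KO1 and 114, 103 and 134 in KO2, with differences of 0.19 ± 0.07 in KO1 and 0.64 ± 0.07 in KO2 (KO2 minus KO1 0.45 ± 0.07, limma adjusted p = 1.2e-05). Slc2a3 and Slc2a1, the glucose transporters GLUT3 and GLUT1, were among the 14 (3506 to 3708 in WT and 3996 to 4979 in the knockout libraries, and 662 to 719.8 in WT and 737 to 929.9 in the knockout libraries), with Hk2, which traps glucose in the cell, and Tpi1. The others were Ndrg1, Ero1l, Hk1 and Ldha, which kept their side under the authors' scaling only, and Gpi1, which also kept it under quantile normalization. Mean differences over both lines ran from 0.09 to 0.45 in the 14 genes, 3 of which (Slc2a3, Hk2 and Tpi1) lie on chromosome 6. Called between the lines were 9 of the 14, against 12.1% of all 928 genes.

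Start regions of 3 of these genes are shown because they carry the core letters of the HIF response element, ACGTG, in capitals (searched on both strands, and overlapping CACGTG where that occurs). Of the list's 28 genes with a RefSeq window 18 held the core, and of the 11 that met the rule 7 did (Aldoc, Bnip3, Egln3, Hk2, Ldha, P4ha1 and Slc2a1), against 27.2% of the 8099 promoters. In all higher genes with a window (507) the share was 27.6% and in all lower ones (222) it was 23.9%, close to the share over all. The Bnip3 window (chr7:138909457-138909756, minus strand) holds the core on both strands in a single CACGTG, the Egln3 window (chr12:54203825-54204124, minus strand) holds it once, and so does the Aldoc window (chr11:78322823-78323122, plus strand, with a RefSeq start 105 bases from that of GENCODE).
Bnip3: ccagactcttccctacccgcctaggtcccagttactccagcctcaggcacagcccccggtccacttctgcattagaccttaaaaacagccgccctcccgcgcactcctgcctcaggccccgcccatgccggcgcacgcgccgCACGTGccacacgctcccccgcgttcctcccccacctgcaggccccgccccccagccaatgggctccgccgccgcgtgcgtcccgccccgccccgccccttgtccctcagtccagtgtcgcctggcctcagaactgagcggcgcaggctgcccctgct
Egln3: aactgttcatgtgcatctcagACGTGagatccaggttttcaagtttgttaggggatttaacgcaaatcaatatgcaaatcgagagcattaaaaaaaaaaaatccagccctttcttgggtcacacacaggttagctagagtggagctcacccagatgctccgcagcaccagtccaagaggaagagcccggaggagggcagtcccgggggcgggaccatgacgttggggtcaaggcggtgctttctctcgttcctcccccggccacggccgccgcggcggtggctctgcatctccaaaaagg
Aldoc: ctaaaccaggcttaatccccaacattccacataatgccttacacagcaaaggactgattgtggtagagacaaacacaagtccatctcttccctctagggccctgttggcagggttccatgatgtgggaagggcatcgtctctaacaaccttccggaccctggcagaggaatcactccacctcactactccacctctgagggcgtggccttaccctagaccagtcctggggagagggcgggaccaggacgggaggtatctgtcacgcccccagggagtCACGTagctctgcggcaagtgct

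Txnip, which binds thioredoxin and limits glucose uptake, is not on that list and was named for its difference between the lines. It stood at 215, 200.4 and 205 in WT, 235, 226 and 219.8 in KO1 and 297, 300.1 and 318 in KO2, lost its place on one side of WT under quantile normalization only, and was higher in KO2 than in KO1 (0.42 ± 0.05, limma adjusted p = 6.0e-09). Tef, a transcription factor tied to the circadian clock, stood at 43.9, 33.1 and 45.1 in WT, 50.1, 47.4 and 45.3 in KO1 and 66.4, 61.9 and 62.6 in KO2. WT replicate 3 and KO1 replicate 3 nearly met in Tef, which did not keep its side under any of the other 3 scalings, and KO2 lay above KO1 (0.41 ± 0.09, limma adjusted p = 0.0012).

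Of the lipid genes, 4 of 24 tested in sterol synthesis and uptake were higher (16.7%, against 6.37% of all tested genes) and none lower. The list's median difference was 0.17, and by line it was 0.07 in KO1 and 0.27 in KO2. The count of higher genes was 2 under each other scaling, 10 without WT replicate 1 and 7 without KO1 replicate 1 or KO1 replicate 2. Over all tested genes the higher count went from 652 to between 448 and 464 under those scalings, and to 1155, 814 and 843 without these libraries. Dhcr7, the last enzyme of cholesterol synthesis, stood at 109.8, 94.1 and 106 in WT, 129, 132 and 120.3 in KO1 and 170.4, 167 and 149 in KO2. KO1 lay above WT and KO2 above KO1 (KO2 minus KO1 0.35 ± 0.06, limma adjusted p = 1.1e-04). Stard4, a carrier of sterols between membranes, stood at 71.1, 72.9 and 66.9 in WT, 84.7, 76.8 and 79.4 in KO1 and 94.5, 84.2 and 94 in KO2. Insig1, which holds the sterol sensor in the endoplasmic reticulum (126 to 136 in WT and 138 to 190.4 in the knockout libraries), kept its side under the authors' scaling only. Insig1 was higher in KO2 than in KO1 (0.36 ± 0.06, limma adjusted p = 1.7e-05). Of the 17 list genes with a promoter window 1 held the sterol element letters TCACNCCAC (either strand, 1.05% of all 8099), and that gene did not meet the rule.

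In fatty acid metabolism 6 of 23 tested genes were higher (26.1%, against 6.37% of all) and none lower. With other scalings 4 or 5 were higher and at most 1 lower. The list median was 0.08, and by line it was 0.04 in KO1 and 0.17 in KO2. Scd1, the desaturase that makes oleate, stood at 453, 439 and 445 in WT, 476, 491 and 486 in KO1 and 656, 636 and 709 in KO2. Its levels were 109% and 149.7% of WT in KO1 and KO2, with the 3 groups separate (KO2 minus KO1 0.46 ± 0.04, limma adjusted p = 3.1e-12). Acsl1 and Acsl3, which activate fatty acids to acyl-CoA, stood at 88.6, 90.8 and 98.4 in WT, 108, 109.8 and 109 in KO1 and 124, 123 and 117 in KO2 for Acsl1 and at 181 to 193 in WT and 202 to 239 in the knockout libraries for Acsl3. Fads1, a desaturase of polyunsaturated fatty acids, stood at 177, 164 and 179 in WT, 187, 185 and 193 in KO1 and 216, 208 and 232 in KO2 (KO2 minus KO1 0.21 ± 0.05, limma adjusted p = 0.0051). Acly, which makes cytosolic acetyl-CoA, and the desaturase gene Scd2 completed the 6, but Acly did not keep its side under quantile normalization and Scd2 kept it under the authors' scaling only. Without WT replicate 2, 1 gene of the list was lower. Among 28 lysosome genes 7 were higher (25%, against 6.37% of all) and none lower. The higher count was 4, 6 and 4 under median-ratio, quantile and TMM scaling, and 12 without WT replicate 1. Without that library the higher count over all tested genes was 1155, against 652 with it. Among the 7 was the protease gene Ctsb (394 to 408 in WT and 436 to 457 in the knockout libraries). The granulin precursor gene Grn was another (367 to 390.2 in WT and 394 to 431 in the knockout libraries). The lysosomal membrane protein gene Scarb2 and the cholesterol exporter gene Npc1 kept their side under the authors' scaling only.

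Some genes of basement membrane and cell junctions were higher, and none of either list was lower, although 1 basement membrane gene was lower without WT replicate 2 and 1 junction gene without KO1 replicate 2. Of 14 laminin, collagen IV and basement membrane genes 5 were higher (35.7%, against 6.37% of all) and 9 did not meet the rule. With each other scaling 4 were higher. The median difference of this list was −0.000891 in KO1 and 0.15 in KO2. Lamb1, the laminin beta 1 chain, stood at 98.6, 81.8 and 95.6 in WT, 118, 122 and 129 in KO1 and 111, 114 and 116 in KO2. KO1 was on average the higher line, and all knockout libraries exceeded WT. Lama1, the alpha chain of the early embryonic laminin, stood at 277, 254 and 269 in WT, 319.7, 321 and 314 in KO1 and 328, 299 and 311 in KO2, with nearly equal differences of 0.25 ± 0.05 in KO1 and 0.23 ± 0.05 in KO2. Nid1, which links laminin to collagen IV (1076 to 1155 in WT and 1199 to 1265 in the knockout libraries), and the laminin receptor gene Dag1 (459 to 477 in WT and 484 to 565 in the knockout libraries) were higher as well, whereas Lamb2 (243 to 288 in WT and 288 to 319 in the knockout libraries) kept its side under the authors' scaling only.

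Of 21 desmosome and epithelial junction genes 7 were higher (33.3%, against 6.37% of all) and 14 did not meet the rule. Under median-ratio, quantile and TMM scaling 3, 4 and 3 were higher instead of 7. The list median was 0.09 under the authors' scaling. Dsp, which encodes desmoplakin and ties desmosomes to intermediate filaments, stood at 104, 96.9 and 101 in WT, 123, 132 and 133 in KO1 and 168, 149.9 and 161 in KO2. All 3 groups were separate from each other (KO2 minus KO1 0.30 ± 0.06, limma adjusted p = 4.0e-04). Cldn4, a tight junction claudin, stood at 174, 157 and 172 in WT, 199, 199 and 195 in KO1 and 205, 203 and 180.4 in KO2, and Cdh3, which encodes P-cadherin, at 151, 137 and 151 in WT, 162, 169 and 168 in KO1 and 198, 168 and 183 in KO2. Both had all knockout libraries above WT, in Cldn4 with KO2 replicate 3 nearest to it. Pkp2, a plakophilin of desmosomes, kept its side under the authors' scaling only (30.9 to 36.1 in WT and 36.3 to 50.9 in the knockout libraries), as did Tjp1 and the E-cadherin gene Cdh1, and the desmoglein gene Dsg2 kept it under that and quantile normalization. In the list of interstitial matrix, integrins and focal adhesion 5 of 20 tested genes were higher (25%) and 1 was lower (5%). Over all tested genes these shares were 6.37% and 2.7%. With each other scaling 4 genes of the list were higher. The integrin genes Itga5 (120.1 to 128 in WT and 132 to 147 in the knockout libraries) and Itga6 (254 to 261 in WT and 283 to 328 in the knockout libraries) were higher, while Itgb5 (180.5 to 194 in WT and 153 to 173 in the knockout libraries) was lower.

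Of the markers of other cells, some summed levels stood above WT in both lines and others overlapped it. Each sum includes any gene of its list that met the rule, so the sums are not separate from the selection. Of 19 fibroblast (feeder) markers 9 had a row, 4 were tested and 3 were higher (75%, against 6.37% of all tested genes), a share that rests on few genes. They were the matrix gene Fbln2, which lies on chromosome 6, the growth factor receptor gene Pdgfrb and the matrix protease gene Mmp2. The last kept its side under the authors' scaling only. Fbln2 stood at 13.6, 14.2 and 17 in WT, 20.9, 18.5 and 21.5 in KO1 and 22.9, 23.9 and 22.6 in KO2, and Pdgfrb at 14.1, 14.2 and 15.1 in WT, 17.6, 18.7 and 18.9 in KO1 and 24.7, 22.6 and 21.2 in KO2. Their levels were low, and Fbln2 and Pdgfrb had all knockout libraries above WT. The summed level of the 9 was 129.8 to 138.6 in WT, 139.3 to 142.3 in KO1 and 174.8 to 180.6 in KO2, and the defining markers Col3a1, Dcn, Lum and Postn had no row in the table analysed here. Primitive endoderm markers summed to 1035 to 1128 in WT, 1196 to 1232 in KO1 and 1214 to 1293 in KO2 over 11 of 19 genes, of which 5 were tested and 2 higher (Lama1 and the lipoprotein gene Apoe, 542 to 615 in WT and 648 to 739 in the knockout libraries), with no row for Gata6, Sox17, Sox7 or Foxa2. Trophoblast markers summed to 148.6 to 164.8 in WT, 166.7 to 173.4 in KO1 and 171.2 to 181.8 in KO2 over 11 of 13 genes. Only 2 were tested and 1 was higher (50%, against 6.37% of all tested genes). It was Tead4, also on chromosome 6 (72 to 75.2 in WT and 76.9 to 92.6 in the knockout libraries). Without WT replicate 1 both tested trophoblast genes were higher. Mesoderm and primitive streak markers (12 of 16 with a row) summed to 54.21 to 57.57 in WT, 55.51 to 62.3 in KO1 and 49.65 to 58.2 in KO2, and markers of the 2-cell-like state (11 of 16 with a row) to 323.9 to 333.7 in WT, 328.3 to 340 in KO1 and 302.5 to 337.6 in KO2. In both of these lists the knockout lines overlapped WT, and no tested gene of them met the rule. The part of such cells in the result was not tested.

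Pluripotency genes lay on both sides of WT. All 27 general and naive genes were tested, with 3 higher (11.1%, against 6.37% of all) and 3 lower (11.1%, against 2.7%). The list median was −0.02. The list's summed level, which includes the 3 higher and 3 lower genes, was 18730 to 19160 in WT, 19300 to 19760 in KO1 and 19060 to 19470 in KO2. Pou5f1 (2249 to 2437 in WT and 2263 to 2438 in the knockout libraries), Nanog and Sox2 did not meet the rule. Dppa3, which protects methylated DNA in the early embryo, stood at 139, 123 and 129.5 in WT, 167, 165 and 176 in KO1 and 149.7, 157 and 179 in KO2. Its differences were 0.38 ± 0.06 in KO1 and 0.31 ± 0.06 in KO2, with all knockout libraries above WT. Dppa5a, an RNA-binding protein of ES cells (2648 to 2869 in WT and 3047 to 3449 in the knockout libraries), and the growth factor gene Fgf4 (539.8 to 575 in WT and 592 to 696 in the knockout libraries) were higher, the former not under quantile normalization. Tbx3, a transcription factor of the naive network, stood at 319, 326 and 328 in WT, 285, 294 and 303 in KO1 and 279, 299 and 295 in KO2, and Sall4 and Zfp42 were lower too. Formative and primed genes also split, with 3 of 17 higher (17.6%) and 3 lower (17.6%, and 5 lower without WT replicate 3). Here Dnmt3a, a DNA methyltransferase, was higher (122 to 132 in WT and 134 to 145 in the knockout libraries) while its relative Dnmt3b was lower, at 242, 242 and 251 in WT, 226, 227 and 229.7 in KO1 and 189, 190.3 and 187 in KO2. In Dnmt3b the KO2 libraries lay below those of KO1 (KO2 minus KO1 −0.27 ± 0.05, limma adjusted p = 1.0e-04), and the cofactor gene Dnmt3l was also lower (359.5 to 370.1 in WT and 331 to 349 in the knockout libraries).

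Of 32 kinesin genes 4 were higher (12.5%, against 6.37% of all tested genes) and only Kif2a was lower (3.12%, against 2.7%). With each other scaling 2 were higher and 2 lower, and 3 were lower without WT replicate 1 and 2 without WT replicate 2 or KO2 replicate 1. The Kif2a paralog Kif2c did not meet the rule, at 304 ± 9.89 in WT against 302 ± 4.56 in KO1 and 288 ± 10.9 in KO2 (mean ± SD, n = 3 each). Kif21b, a kinesin best known from neurons, stood at 17.2, 10 and 18 in WT, 18.1, 20.3 and 19.8 in KO1 and 31.1, 27.8 and 29.4 in KO2. Its WT level was low and scattered, it did not keep its side under quantile normalization, and KO2 lay above KO1 (0.58 ± 0.14, limma adjusted p = 0.0033). The transport kinesin gene Kif1c stood at 100.03, 97.2 and 96.5 in WT, 105, 104 and 116 in KO1 and 115, 120.1 and 116 in KO2, and Kif13b (301 to 333 in WT and 333 to 353 in the knockout libraries) lost its side under median-ratio and TMM scaling. Of 13 tubulins 2 were lower (15.4%), Tubb3 and the delta-tubulin gene Tubd1 (11.3 to 14.2 in WT and 8.04 to 11 in the knockout libraries), and of 29 microtubule regulators 1 was higher (3.45%), Tacc2 (255 to 277 in WT and 281 to 303 in the knockout libraries), which encodes a centrosomal coiled-coil protein. Of the regulators 3 were higher without WT replicate 1, WT replicate 3 or KO1 replicate 2, 4 without WT replicate 2 and 2 without KO2 replicate 2, and 1 was lower without WT replicate 2, KO1 replicate 3 or KO2 replicate 2. Of the tubulins 1 was higher without WT replicate 3, KO1 replicate 2 or KO1 replicate 3.

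Cytokinesis, midbody and ESCRT genes, the step the study is about, gave 2 higher and 1 lower of 37 tested genes (5.41% and 2.7%), close to the shares of 6.37% and 2.7% over all tested genes, and so no result about this group. The other scalings gave 2 of each, and the list median difference of 0.02 equals that over all tested genes. Without WT replicate 3, 5 were higher and without KO1 replicate 3, 4, and 2 were lower without WT replicate 2 or KO1 replicate 1. The members are given for their levels alone. Pdcd6ip, which encodes ALIX, a recruiter of ESCRT to the midbody, stood at 162, 176 and 166 in WT, 181, 187 and 190.2 in KO1 and 190.4, 194 and 203 in KO2, and Anln, the scaffold anillin of the cleavage furrow, at 618, 614 and 610.4 in WT, 657, 650.1 and 656 in KO1 and 648, 646 and 687 in KO2. Cep55, which brings ALIX to the midbody, was lower, at 129, 134 and 134 in WT, 127, 124 and 124 in KO1 and 118, 108 and 124 in KO2. Knockout libraries did not overlap WT in any of these genes, as the rule required, and in Cep55 KO1 replicate 1 came within 3 normalised read counts of WT. Of 31 mitotic kinase, kinetochore and checkpoint genes 1 was lower (3.23%). It was the ubiquitin-conjugating enzyme gene Ube2c (381 to 392 in WT and 336 to 378 in the knockout libraries). Among 39 replication genes 1 was higher (2.56%), Rfc1, and 3 were lower (7.69%). Mcm4, a subunit of the replicative helicase, was lower (719.7 to 737 in WT and 659 to 701 in the knockout libraries). So was Rrm2, a subunit of ribonucleotide reductase (547 to 576 in WT and 489 to 532 in the knockout libraries). The clamp loader gene Rfc3 was lower as well. The lower count of replication genes rose to 10, 7 and 9 under median-ratio, quantile and TMM scaling, to 8 without WT replicate 2 and to 5 without KO1 replicate 3, and 2 were higher without WT replicate 2 or KO2 replicate 1. Over all tested genes the lower count also rose, from 276 to 468, 424 and 455 under those scalings, 629 without WT replicate 2 and 434 without KO1 replicate 3. Among the mitotic genes 2 were lower without WT replicate 1 or KO1 replicate 2, and 3 without WT replicate 2 or KO1 replicate 3. There 1 gene was higher when any 1 WT replicate was left out, and 2 without KO2 replicate 2.

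Within the p53 pathway 3 of 24 genes were higher (12.5%, against 6.37% of all) and 3 lower (12.5%, against 2.7%). With each other scaling 2 were higher and 5 lower. Trp53 itself stood at 778, 746 and 776 in WT, 684, 678 and 711 in KO1 and 643, 639 and 614 in KO2, with the 3 groups separate. Cdkn1a, the p53-induced inhibitor of cyclin-dependent kinases, stood at 526, 482 and 529 in WT, 550.1, 535 and 558 in KO1 and 557, 583 and 541 in KO2, above WT in all knockout libraries by a margin smaller than the WT range. Usp28, a deubiquitinase that stabilises p53 after long mitoses, was higher (285 to 294 in WT and 312 to 354 in the knockout libraries), and Gtse1, which restrains p53 in G2 (427 to 448 in WT and 369.5 to 412 in the knockout libraries), and the p53 target Sesn2 (244 to 251 in WT and 198 to 236 in the knockout libraries) were lower. Mdm2 did not meet the rule. Ccnd1, the G1 cyclin D1 and the only lower gene of 10 tested WNT targets (2 with each other scaling and without KO1 replicate 1 or KO1 replicate 3), stood at 306, 288 and 284 in WT, 263, 281 and 268 in KO1 and 222, 216 and 200.1 in KO2. KO2 lay below KO1 in Ccnd1 (KO2 minus KO1 −0.35 ± 0.05, limma adjusted p = 1.0e-06).

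Several other lists were near the shares over all tested genes (6.37% higher and 2.7% lower), and others were above them. Among 28 glutathione and selenoprotein genes 2 were higher (7.14%), with the lipid peroxidase gene Gpx4 at 427 to 444 in WT and 472 to 516 in the knockout libraries, and 3 were lower (10.7%), Gpx1, Selenot and the quinone reductase gene Nqo1 (112 to 119.8 in WT and 79.5 to 109 in the knockout libraries). That lower count was 7, 6 and 7 under the other scalings, 7 without WT replicate 2 and 5 without KO1 replicate 3. Over all tested genes the lower count went from 276 to 468, 424 and 455 under those scalings, and to 629 and 434 without these libraries. Gsto1, a glutathione transferase named for its difference between the lines, stood at 169.5, 167 and 173 in WT, 155, 159 and 165 in KO1 and 117, 110.01 and 131 in KO2 (KO2 minus KO1 −0.42 ± 0.06, limma adjusted p = 9.8e-07). In the stress and unfolded protein list 5 of 25 were higher (20%) and 2 lower (8%; 4 or 5 of each with other scalings, and 5 and 4 lower without WT replicate 2 and KO1 replicate 3), including the secretory stress factor gene Xbp1 (120.4 to 129 in WT and 136 to 157 in the knockout libraries) and, lower, Atf4 (539 to 546 in WT and 459.7 to 537 in the knockout libraries), which drives the integrated stress response. In the list of calcium stores and IP3 signalling 4 of 15 genes were higher (26.7%) and none lower (1 without WT replicate 3 or KO1 replicate 2), with Itpr1 joined by Itpr3 (246 to 264 in WT and 276 to 313 in the knockout libraries), Plcb3 and Plcg1. Of 51 nuclear genes of the respiratory chain 6 were higher (11.8%) and none lower (4, 6 and 4 higher with the other scalings and 10 without KO2 replicate 1; 2 lower without WT replicate 2 and 1 without KO2 replicate 3), led by the complex III gene Uqcrfs1 (128 to 132 in WT and 139 to 156 in the knockout libraries). Of 80 ribosomal protein genes 4 were higher (5%, below the share over all genes, and 1, 4 and 1 with the other scalings). This count was 13 without WT replicate 1 and 7 without WT replicate 3 or KO1 replicate 1. Over all tested genes the higher count was 1155, 1011 and 814 without these libraries, against 652 with all. Of 50 ribosome biogenesis genes 4 were lower (8%; 7, 4 and 6 with the other scalings and 7 without WT replicate 2), Dimt1 among them with Wdr46, Bysl and Ncl. Of 8 mitochondrially encoded genes mt-Cytb was lower (2234, 2383 and 2239 in WT, 2211, 2184 and 2097 in KO1 and 1725, 1769 and 2070 in KO2), except under quantile normalization, and 3 genes of that list were lower without WT replicate 3 or KO1 replicate 2 and 2 without WT replicate 1. KO2 replicate 3 stood apart there, and mitochondrial genes took 1.03% of its reads, against 0.847% and 0.860% in the other KO2 libraries and 0.962% to 1.08% in WT. The part of that library in the result was not tested. Among 18 imprinted genes Peg10 (269.8 to 291 in WT and 317 to 354 in the knockout libraries) kept its higher level under every scaling, Trappc9 lost it under 2 of them and Peg3 under all 3.

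**Figure D2:**
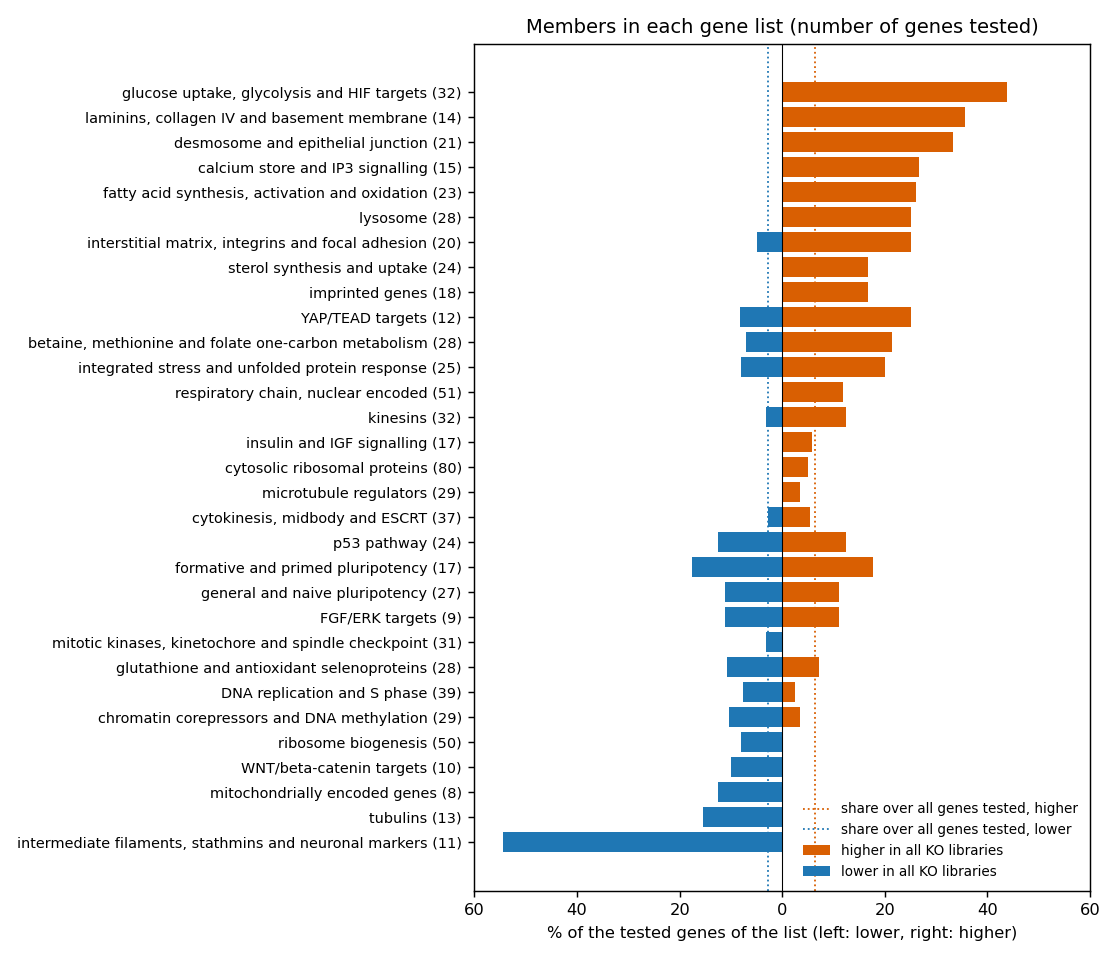
Share of the tested genes of each list with at least 8 tested genes that lay above (right) or below (left) WT in all 6 knockout libraries; dotted lines mark the shares over all tested genes, 6.37% and 2.7%, and the number tested stands behind each name. The longest bars among these lists are the 14 of 32 glucose and HIF genes on the higher side and, on the lower side, the 6 of 11 genes of intermediate filaments, stathmins and neuronal markers. With other scalings the former count fell to 9 or 10 and the latter was 8, while over all tested genes the higher count fell and the lower count rose.

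The lines were then compared with each other. KO2 and KO1 differed in 112 of the 928 genes (12.1%) by limma at an adjusted p under 0.05 over all 10238 genes, where 1016 genes were called (9.92%; 4.71% higher in KO2 and 5.22% lower). The share among the 928 is near that background, and among the other 9310 tested genes it was 9.71%. Called were 72 of the 652 higher genes (11.04%) and 40 of the 276 lower genes (14.5%). In 111 of the 112 KO2 lay farther from WT, and Bhmt was the exception. The like share among called genes outside the 928 is not given here, so this count has no background of called genes. The median size of those 111 was 0.12 in KO1 and 0.36 in KO2. Without the test, 698 of the 928 genes (75.2%) had the larger mean difference in KO2, 71.3% of the higher and 84.4% of the lower ones. Over all tested genes this share was 65.7%, and among the other 9310 it was 64.8%, or 66.7% of the 5999 with the same sign in both lines, so KO2 lay farther from WT in most genes of either kind. The count of 112 fell to 58 without KO1 replicate 2, 66 without KO1 replicate 3 and 74 without KO2 replicate 1.

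**Figure D3:**
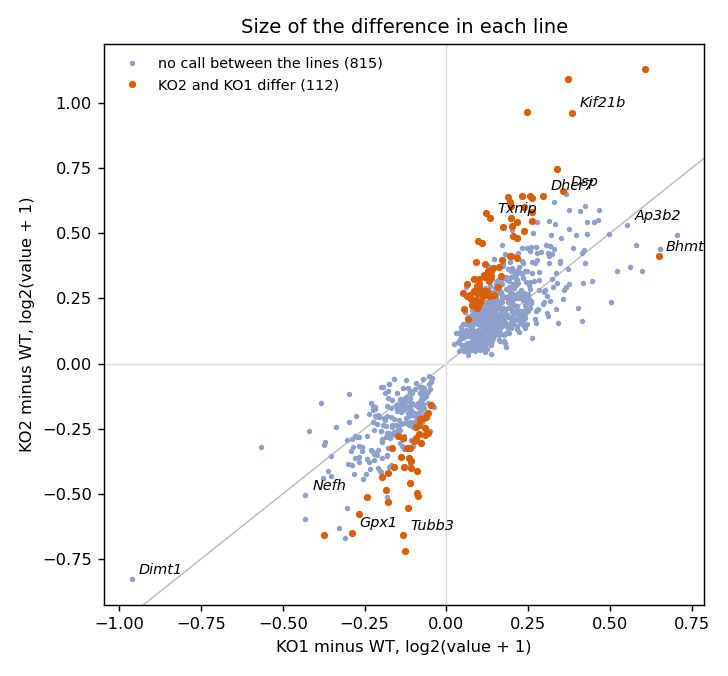
Difference from WT in KO1 (x axis) and KO2 (y axis), log2(value + 1), for the genes on one side of WT in all knockout libraries, leaving out Kif2a, which lies far below at −5.85 and −5.75. Both axes share the WT libraries; the grey diagonal marks equal differences, the orange points are the 112 genes called between the lines, and 111 of these lie farther from WT in KO2.

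By position, chromosome 6 held the largest share of higher genes. Of its 469 tested genes 70 were higher (14.9%, against 6.37% of all tested genes) and 2 lower (0.426%, against 2.7%). The next highest share of higher genes was 9.63% on chromosome 9. Under the other scalings 52 to 57 genes of chromosome 6 were higher (11.1% to 12.2%), while the count over all tested genes fell from 652 to between 448 and 464. Leaving out each library in turn gave 72 to 95 on chromosome 6, and between 717 and 1155 over all tested genes. The median over all tested genes of chromosome 6, against the median of the library, was −0.000 to 0.005 in WT (log2 difference from the WT mean), 0.037 to 0.043 in KO1 and 0.006 to 0.033 in KO2, so KO2 replicate 2 nearly met WT. Windows of 10 Mb held between 0 and 18 higher genes, with 18 of 69 between 120 and 130 Mb. Aldh1l1, Itpr1, Dppa3, Fbln2, Peg10, Tead4 and Rpl32 lie on this chromosome, and Nanog, which also does, did not meet the rule. The part of chromosome 6 as a whole in the levels of these genes was not tested.

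**Figure D4:**
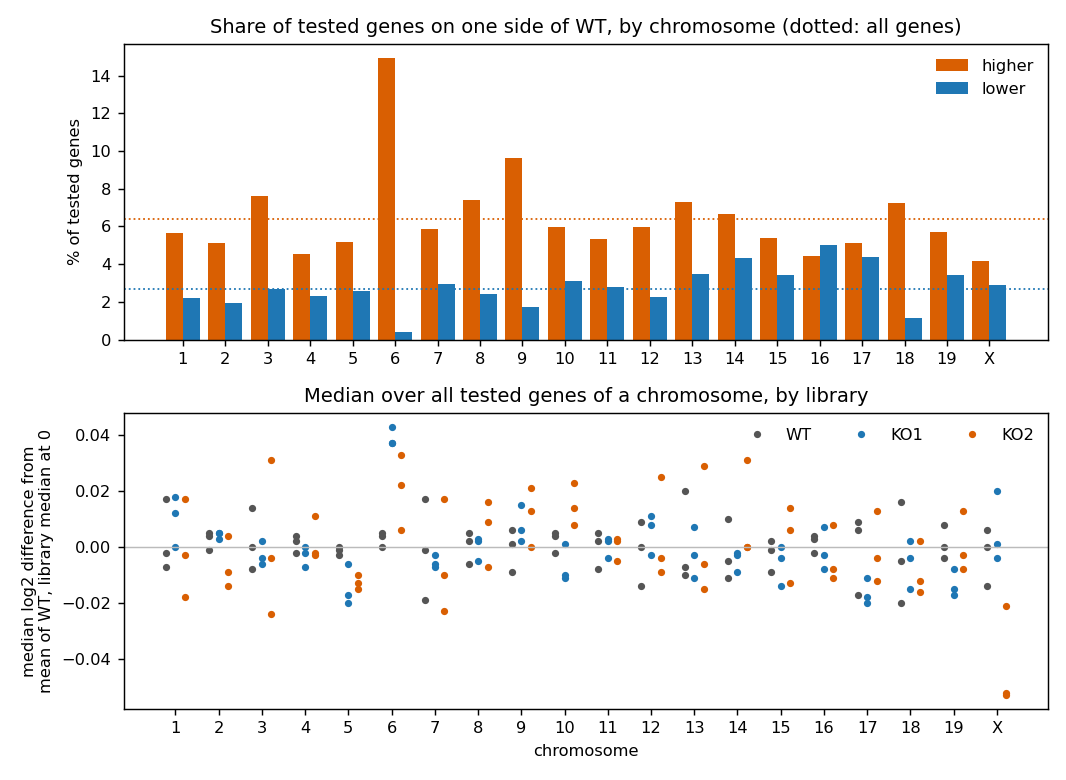
Upper panel, share of tested genes that were higher or lower in all knockout libraries on each chromosome, with the shares over all genes dotted; lower panel, median over all tested genes of a chromosome in each library (log2 difference from the mean of WT, with the library median at 0). Chromosome 6 has the tallest bar, 14.9%, and its KO1 points lie at 0.037 to 0.043.

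Gene order gave further values without a test. Of the 1293 neighbours of higher genes among tested genes 9.13% were themselves higher, against 6.36% of all positioned genes, and of the 547 neighbours of lower genes 5.12% were lower, against 2.70%. Runs of 3 adjacent higher genes occurred in 6 places, one of them the Bhmt trio and one on chromosome 6 (Cecr2, Atp6v1e1 and Bcl2l13), and no such run of lower genes was found.

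In level, transcript length and promoter letters the genes are set beside all tested genes, without a test. Level is not independent of the rule, which required libraries without overlap, and the part of the rule in the level values was not tested. Higher genes had a median WT level of 104.1 and lower genes of 98.9, against 73.5 over all tested genes, and with tested genes cut by mean level into 4 equal bins the share of higher genes went from 3.95% in the lowest bin to 8.79% in the highest, and that of lower genes from 2.11% to 3.87%. The median longest annotated transcript was 4049 bases in higher genes, 3063 in lower genes and 3476 over all. Median promoter GC content was 64.0% in higher genes, 59.8% in lower genes and 61.7% over all 8099 windows. The GC box followed the same order, at 75%, 59% and 69%. Of the other motifs looked for, CACGTG stood at 10.3% in higher genes, 11.3% in lower genes and 11.1% over all windows. In the same order CCAAT stood at 41.2%, 37.8% and 39.8%, and the TCF motif CTTTGA at 9.07%, 11.3% and 11.3%. The TBP core element TATAAA stood at 5.13%, 9.01% and 5.95%, and the sterol element at 2.17%, 0.901% and 1.05%.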

How the data were processed

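Poly-A RNA was sequenced from 9 libraries with a stranded TruSeq kit as paired ends of 50 bases, per the labels' protocols. Per the submitters' processing notes the authors used HISAT2 and DESeq2 on the GRCm38 build; tool versions, annotation and strand setting are not given in the sources used. Deposited was a signal, that is read counts per gene which the authors had divided by a factor per library. Whole reads could be recovered for 100% of values in every library (tolerance 0.05 reads), 14960295 to 18814858 per library. No pair of libraries in a group was a duplicate. The plan allowed for counts; scaled values were found, so limma was the main test and count tests were alternatives. On the recovered reads edgeR called 125 of the 928 genes between the lines (1075 of all genes).

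The rule for the 928 genes, the gene lists and the naming rule were chosen with earlier results of these data known. limma 3.58.1 (R 4.3.3) was fitted to log2(value + 1) of the 10238 genes with a mean of at least 10, with a mean per group, a variance trend and robust moderation, and KO2 minus KO1 counted as different below an adjusted p of 0.05 (Benjamini-Hochberg). Error terms of log2 differences are SE of this fit. Alternatives used edgeR 4.0.16 (quasi-likelihood test, TMM), DESeq2 1.42.0, median-ratio and quantile scaling, other filters and pseudocounts, a replicate block, and leaving out each library. Tables and figures were made in Python 3.11.15.

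Named are Kif2a; the 15 higher and 15 lower genes of largest shared size with a mean of at least 50; up to 4 genes per list, largest first; the 6 farther in KO2 and 4 farther in KO1 with the largest called difference between the lines; tested genes within 1 Mb of Kif2a; genes next to the minimum mean; and 7 fixed markers. Predicted genes were passed over. Other genes were named after their values were seen, among them the remaining list genes, and a few genes that the rules pick are not reported here. Positions are those of GENCODE M21 by symbol (98.98% of rows matched), and 20 symbols occur more than once. Promoters are from RefSeq, for 8099 of the tested genes.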

Additional observations from a re-analysis of the deposited data

Results flagged for a closer look

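Of the named genes that met the rule, 35 differed between the knockout lines under the authors' scaling. The test was KO2 against KO1 (limma, adjusted over 10238 genes, 3 libraries per line). In 17 of the 35 the call held under each of the 17 alternatives run, and in 18 at least 1 alternative lost it. Listed here are the 17 genes whose call held, chosen for that reason, and Gask1b, whose call did not hold throughout. KO2 lay farther above WT for Kif21b (KO2 minus KO1 0.58 on the log2 scale), Scd1 (0.46), Bnip3 (0.45), Txnip (0.42), Tef (0.41), Egln3 (0.39), Insig1 (0.36), Dhcr7 (0.35), Dsp (0.30) and Fads1 (0.21). In these genes the 3 KO2 libraries lay above the 3 KO1 libraries. KO2 lay farther below WT for Tubb3 (−0.53), Gsto1 (−0.42), Gpx1 (−0.36), Ccnd1 (−0.35), Vim (−0.30), Dnmt3b (−0.27) and Gask1b (−0.24), again with no overlap between the lines. The Gask1b call (limma adjusted p = 0.018) was lost without KO1 replicate 2 (−0.24, adjusted p = 0.059), KO1 replicate 3 (−0.22, 0.089) or KO2 replicate 1 (−0.22, 0.083). Bhmt alone of the 18 lay farther from WT in KO1 (−0.24). Each line is 1 cell line, so the knockout and the line cannot be told apart here, and the cause of these differences was not tested.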

How the results depend on the processing

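The count of lower genes, 276, became 468, 424 and 455 under median-ratio, quantile and TMM scaling, while that of higher genes went from 652 to 448, 464 and 461. Leaving out 1 library can only add genes to such a rule at a given mean, and gave 717 to 1155 higher and 298 to 629 lower genes. The counts were most different without WT replicate 1 (1155 higher, 486 lower), WT replicate 2 (629 lower) and WT replicate 3 (1011 higher, 425 lower), and without KO1 replicate 3 (434 lower). A minimum mean of 5 gave 714 higher and 291 lower genes, 20 gave 607 and 252, and no minimum 804 and 356. The 112 calls between the lines were 122 and 125 under median-ratio and quantile scaling, 113 and 112 with pseudocounts of 0.5 and 5, 94 with no filter, 125 with edgeR, 125 with DESeq2 and 58 to 130 without 1 library. With the replicate block they were 93. Same-numbered libraries of different groups showed no shared deviation (correlations −0.129 to 0.027, against −0.092 to 0.166 for differently numbered ones). The labels state no pairing, and these correlations cannot decide it, since a pairing could leave no mark on them. For the 130 named genes that met the rule the difference from WT stayed within the spread between replicates in 1813 of 1820 values under other settings and moved beyond it in 7, with no change of sign. The rule itself fixes that sign when 1 library is left out or the pseudocount is changed, so those settings could not have changed it. Of the 8 named genes that did not meet the rule, 4 (Ndufaf2, Pou5f1, Sox2 and Zswim6) changed sign in 7 of 112 values, all within the spread. Between 14960295 and 18814858 reads per library limit what the lowest genes can show, and the cause of each shift was not tested.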

Other observations

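Some genes of large shared size lay under the mean of 50 that the naming rule required, and are named here after their values were seen. Ggt1, a gamma-glutamyl transferase that breaks down glutathione outside the cell, stood at 13.8, 10.6 and 13.6 in WT, 19.6, 21.6 and 22.2 in KO1 and 22, 17.4 and 15.5 in KO2. Fah, the last enzyme of tyrosine breakdown, stood at 12.9, 9.77 and 14.4 in WT, 17.2, 17.4 and 18.5 in KO1 and 18.1, 17 and 17.9 in KO2. Soat1, which esterifies cholesterol for storage, stood at 27, 23.7 and 23.2 in WT, 32.7, 37 and 33.8 in KO1 and 41.8, 33.7 and 37.5 in KO2. In all 3 genes both lines lay above WT, by 0.70 ± 0.13 in KO1 and 0.49 ± 0.13 in KO2 for Ggt1, 0.50 ± 0.13 in KO1 and 0.50 ± 0.13 in KO2 for Fah and 0.47 ± 0.10 in KO1 and 0.59 ± 0.10 in KO2 for Soat1. Etv1, an ETS transcription factor, was lower, at 20.1, 21.4 and 16.7 in WT, 15.6, 12.8 and 15.6 in KO1 and 14.9, 13 and 14 in KO2. Igfbp4, which binds insulin-like growth factors, stood at 29.3, 22.7 and 25.6 in WT, 38.1, 30.4 and 30.4 in KO1 and 46.3, 37.9 and 48.1 in KO2, higher in both lines.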
